A study of Arabidopsis thaliana with 8 samples.

Results

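The 2 mutant alleles of *HOT3*, *hot3-3* and *hot3-2*, were compared directly with each other by their sRNAs, without WT in the fit. *HOT3* (AT1G76810) encodes eIF5B1, a translation initiation factor of *Arabidopsis thaliana*. The 4 libraries with the genotype labels *hot3-2* (2 libraries) and *hot3-3* (2 libraries) entered the comparison, out of 8 libraries in the series. The other 4 libraries, from WT plants and from a complementation line, are given only as levels beside a difference between the alleles. All plants were of the Col-0 accession and were sampled as whole seedlings at 18 days under 16 h of light and 8 h of dark. The labels give the same growth temperature for all libraries, which is not the one given in the methods of the study. The alleles carry T-DNA insertions at different places in *HOT3* (SALK_124251 in *hot3-2* and SAIL_1147_G06 in *hot3-3*), and each is 1 line. The complementation line, called *HOT3-EYFP* here, carries *HOT3::HOT3-EYFP* in *hot3-2*, so that it shares the background of *hot3-2* and not that of *hot3-3*. The libraries were made from seedlings of mixed tissues, so that fewer cells of a type and less RNA per cell cannot be told apart.

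eIF5B is a GTPase that joins the large ribosomal subunit to the small subunit once initiator tRNA-Met is in place at the start codon, and in yeast it also takes part in a late step of 18S rRNA maturation. The sRNAs of a plant fall into classes by length. Most microRNAs (miRNAs) and trans-acting siRNAs have 21 nt, siRNAs from DCL2 have 22 nt, and siRNAs of the RNA-directed DNA methylation pathway have 24 nt. Libraries of sRNAs also hold fragments of tRNAs and rRNAs, which have no fixed length.

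Reads were counted in windows of 100 bp, separately for every length between 18 nt and 26 nt. Each length was compared on its own, in windows with 10 or more counts in 2 or more of the 4 libraries, by edgeR's quasi-likelihood test. A window was called when the alleles differed by at least 2-fold and the Benjamini-Hochberg adjusted p over all windows of that length was under 0.01. Windows were sorted into nuclear windows outside the 45S rDNA, windows of the 45S rDNA copies on chromosomes 2 and 3 (rDNA), the chloroplast and the mitochondrion. In all, 23667 of 1196681 windows were tested at 1 or more lengths. Log2 fold changes are given as *hot3-3* against *hot3-2*, on the scale of TMM normalization unless total counts are named, with the standard error of the fit (SE).

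The sequences in which the alleles differed most clearly are shown first, because several of the results turn on how many copies of a sequence the genome holds. They come from the TAIR10.1 assembly of RefSeq, 5′ to 3′ on the strand of the gene. The first group holds the tRNA genes with higher sRNA counts in *hot3-3*, with the anticodon in capitals. tRNA-Cys AT1G63510 (chr1:23559187-23559258, minus strand) and tRNA-Cys AT3G52345 (chr3:19409368-19409439, minus strand) each have a sequence found in 1 gene, tRNA-Cys AT2G39610 (chr2:16518769-16518840, plus strand) has a sequence found in 2 genes, and tRNA-His AT1G02600 (chr1:552640-552711, plus strand) has a sequence found in 6. tRNA-Glu AT1G75970 (chr1:28519985-28520056, minus strand) shares its sequence with 1 more gene, so that 2 genes hold it, and tRNA-Gly AT1G08240 (chr1:2588525-2588596, plus strand) has a sequence found in 12.
tRNA-Cys AT1G63510: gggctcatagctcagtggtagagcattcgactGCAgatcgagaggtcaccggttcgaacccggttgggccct
tRNA-Cys AT3G52345: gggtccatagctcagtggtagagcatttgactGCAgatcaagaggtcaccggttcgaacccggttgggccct
tRNA-Cys AT2G39610: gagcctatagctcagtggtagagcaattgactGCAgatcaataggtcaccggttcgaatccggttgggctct
tRNA-His AT1G02600: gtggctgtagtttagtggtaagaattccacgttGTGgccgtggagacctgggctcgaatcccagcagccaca
tRNA-Glu AT1G75970: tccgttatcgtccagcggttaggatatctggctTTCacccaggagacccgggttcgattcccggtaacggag
tRNA-Gly AT1G08240: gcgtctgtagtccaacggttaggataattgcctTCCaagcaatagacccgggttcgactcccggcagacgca

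The second group is shown because its counts lay in single copies of a repeated sequence or in a copy that is no tRNA gene. tRNA-Glu AT5G45715 (chr5:18542980-18543051, minus strand) is 1 of 6 identical genes, and its window was at 0 in *hot3-3*. AT1G57900 (chr1:27688163-27688234, plus strand) is annotated as a pseudogene, and the capitals in it mark its longest exact run, of 32 nt, that is shared with a tRNA gene, here tRNA-Glu AT1G09110. Most of the capitals lie beyond the called window, which ends at 27688199. The longest run that this window shares with AT1G09110 has 27 nt and lies at the start of the gene, before the capitals.
tRNA-Glu AT5G45715: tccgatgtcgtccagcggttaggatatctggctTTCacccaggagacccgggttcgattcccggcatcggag
pseudogene AT1G57900: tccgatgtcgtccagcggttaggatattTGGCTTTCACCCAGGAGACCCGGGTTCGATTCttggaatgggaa

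The third group holds the 2 mature miRNAs of *MIR3932b*, the *MIR* gene that was called, with the seed (bases 2 to 8) in capitals, and windows on the plus strand that stood out: chr3:8138700-8138799 in pseudogene AT3G22955, chr5:20464500-20464599 in the protein-coding gene AT5G50290, chr3:14198300-14198399 in 18S and chr3:14202100-14202199 in 25S.
ath-miR3932b-5p: uUUGACGUgcucgaucugcuc
ath-miR3932b-3p: aACUUUGUgaugacaacgaag
window in AT3G22955: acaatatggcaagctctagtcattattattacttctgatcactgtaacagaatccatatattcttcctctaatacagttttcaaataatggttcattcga
window in AT5G50290: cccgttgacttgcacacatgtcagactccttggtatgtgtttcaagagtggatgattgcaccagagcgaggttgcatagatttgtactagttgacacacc
window in 18S: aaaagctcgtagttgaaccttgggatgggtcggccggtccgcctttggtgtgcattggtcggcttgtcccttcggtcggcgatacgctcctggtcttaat
window in 25S: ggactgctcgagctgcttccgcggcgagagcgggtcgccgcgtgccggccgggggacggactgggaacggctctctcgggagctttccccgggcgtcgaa

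The 4 libraries had similar depth, with total counts of 7008968 and 7435162 in *hot3-2* and 7576805 and 7783291 in *hot3-3*. Libraries of the same allele differed by more than counting error (chi-square per degree of freedom 4.53 in *hot3-2* and 5.05 in *hot3-3* over windows), so that no 2 libraries were counted as 1. The labels give 2 replicates per genotype. The study calls the replicates independent, and neither source says whether they came from separate sets of plants, so that p-values measure the spread between these libraries. An exact permutation test of 2 against 2 libraries cannot go below p = 0.33, and all p-values here therefore come from edgeR's fit across windows. sRNA counts over *HOT3* itself were too few to test, with 18 and 19 counts in *hot3-2* and 28 and 24 in *hot3-3*, against 535 and 471 in *HOT3-EYFP*.

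The alleles divided their reads differently between the compartments. In *hot3-2* 33.8% and 34.1% of the counts lay in the rDNA, against 40.6% and 40.8% in *hot3-3*. Both alleles were below WT (44.1% and 44.4%) and *HOT3-EYFP* (52.1% and 52.2%) in this share. Nuclear windows outside rDNA held 51.0% and 50.5% in *hot3-2*, against 45.7% and 45.4% for *hot3-3*. In both compartments the libraries of the alleles did not overlap. The chloroplast held 14.6% and 14.7% against 13.0% and 13.1%, and the mitochondrion 0.63% and 0.69% against 0.75% and 0.74%. By length, the share of 21-nt reads was 13.5% and 13.4% for *hot3-2* against 12.5% and 12.4% for *hot3-3*, and that of 24-nt reads 20.4% and 20.3% against 19.1% and 18.8%. The shares of 21 nt and 24 nt were thus lower in both *hot3-3* libraries, by less than 2 percentage points each. Within nuclear windows the 24-nt share was 30.9% and 31.0% for *hot3-2* against 30.6% and 30.5% for *hot3-3*, so that most of the gap in 24-nt share was not seen there.

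Few windows outside rDNA were called between the alleles. Over the 9 lengths, 67 of 45304 nuclear tests were called (0.148%), 50 higher and 17 lower in *hot3-3*, and in rDNA 37 of 1175 were called (3.15%), all 37 higher. In the mitochondrion 4 of 729 were called (0.549%), all higher, and in the chloroplast none of 3253 (0%). Of the nuclear windows at 21 nt, 5 were higher and 3 lower of 3316, at 22 nt 9 were higher and 1 lower of 6566, and at 24 nt 21 were higher and 5 lower of 21408. Across all compartments the called share was 0.257% at 18 nt, 0.294% at 19 nt, 0.0961% at 20 nt, 0.253% at 21 nt, 0.279% at 22 nt, 0.282% at 23 nt, 0.159% at 24 nt and 0.307% at 25 nt. At 26 nt it was 0%, with 150 of 757 windows at an unadjusted p under 0.05 in edgeR. The nuclear calls fell into 42 distinct windows, 29 higher and 13 lower, and 13 of them were called at 2 or more lengths, always in the same direction. A fit without 1 of the libraries rests on the spread of the 2 libraries of the other allele, and its counts moved by over 1.5 times. Without *hot3-2* replicate 1 or 2, the nuclear calls were 43 or 32 at 21 nt, 0 or 0 at 22 nt (271 or 267 at an unadjusted p under 0.05 in edgeR) and 133 or 159 at 24 nt. Without *hot3-3* replicate 1 or 2, they were 57 or 62 at 21 nt, 45 or 53 at 22 nt and 105 or 90 at 24 nt. The excess of higher calls was not kept there, with 47 higher and 58 lower or 39 higher and 51 lower for 24 nt, 21 and 24 or 26 and 27 for 22 nt, and 24 and 33 or 27 and 35 for 21 nt. Without *hot3-2* replicate 1 or 2 it was kept for 24 nt, with 103 higher and 30 lower or 124 higher and 35 lower. With total counts as library size the calls were 1 higher and 4 lower for 21 nt, 6 and 3 for 22 nt, and 17 and 7 for 24 nt, and 17 in rDNA, all 17 higher.

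**Figure D1:**
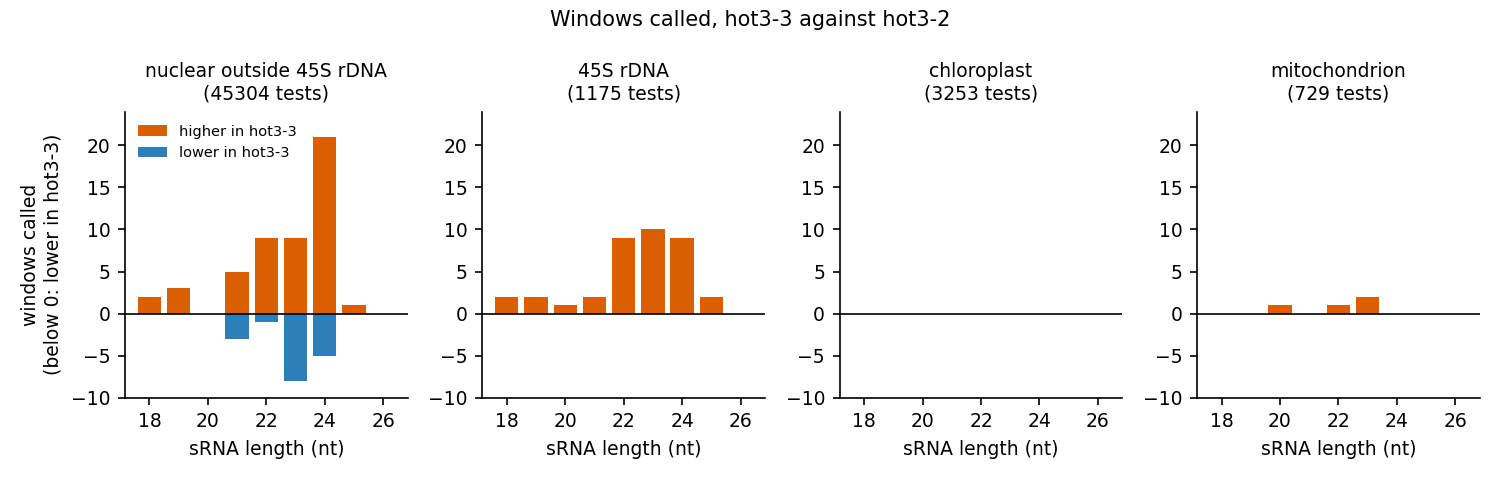
Number of 100-bp windows called between the alleles at each sRNA length from 18 nt to 26 nt, in 4 compartments, with bars above 0 for windows higher in *hot3-3* and bars below 0 for windows lower in *hot3-3*. The nuclear bars are highest at 24 nt (21 higher and 5 lower), the rDNA bars all point up (37 higher) and the chloroplast has no bar.

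Windows over tRNA genes, which encode the adaptors that carry amino acids to the ribosome, made up a large part of the called nuclear windows. Some of these calls were not made for the sum over identical genes, as given below. The emphasis on tRNA genes and the sums over them were chosen after the called windows had been seen. Of the 42 called nuclear windows, 20 overlapped 1 of the 625 annotated nuclear tRNA genes, 18 higher and 2 lower in *hot3-3*, whereas the other 22 were split into 11 higher and 11 lower. Over all lengths, 30 of 1242 tests of windows with a tRNA gene were called, with a median log2 fold change of 0.15, beside 37 of 44062 tests of the other nuclear windows, with a median of -0.026. At 24 nt alone, 13 of 145 windows with a tRNA gene were higher, 1 was lower, and their median was 0.30, beside 8 higher, 4 lower and a median of -0.006 in 21263 others. The windows with a tRNA gene that passed the filter on counts are a part of the 943 windows that overlap such genes.

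**Figure D2:**
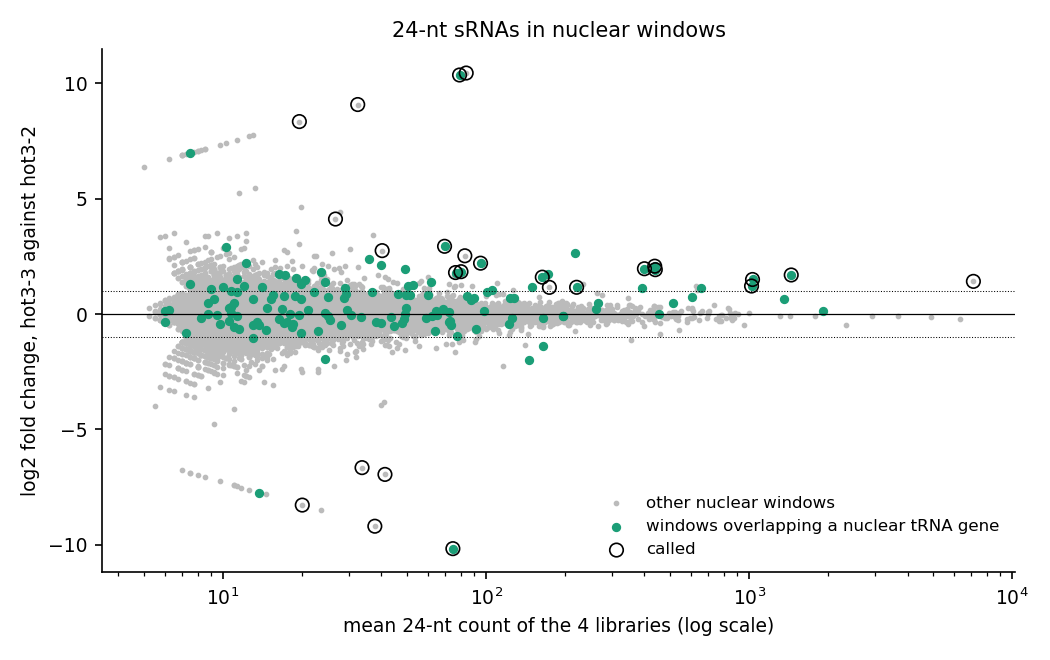
Log2 fold change of *hot3-3* against *hot3-2* (y axis) against the mean count of the 4 libraries (x axis, log scale) for nuclear windows at 24 nt, with windows over a tRNA gene in green, called windows circled and dotted lines at 2-fold. Of the 26 circled windows 14 hold a tRNA gene, and the windows near -10 and 10 are those with 0 counts in both libraries of an allele.

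The 625 tRNA genes hold 226 distinct sequences, and reads of a repeated sequence can be placed in any of its copies. Counts were therefore also summed over all genes of an amino acid. Over 18 nt to 26 nt, tRNA-His genes had 647 and 635 CPM (counts relative to the library's total, on the usual CPM scale) in *hot3-2* and 1996 and 2035 in *hot3-3*, a ratio of 3.15. In WT the tRNA-His level was 565 and 575 CPM and in *HOT3-EYFP* 1523 and 1665 CPM. tRNA-Cys genes had 344 and 327 CPM in *hot3-2* and 816 and 819 in *hot3-3*, a ratio of 2.44. For both amino acids WT was near *hot3-2*, and *HOT3-EYFP*, which has the background of *hot3-2*, was nearer *hot3-3*. The next ratios were 1.70 for tRNA-Asp, 1.59 for tRNA-Arg and 1.45 for tRNA-Pro. tRNA-Gln (0.782), tRNA-Tyr (0.850) and tRNA-Phe (0.862) were the lowest. The libraries of the alleles were apart in each of these 8 sums, but they overlapped only for tRNA-Ala, tRNA-Asn and tRNA-Ile. Ratios near even, such as those of tRNA-Ser (1.03) and tRNA-Trp (0.961), also came with libraries apart, so that being apart does not mark the 8 out. tRNA-Met genes, which include those of the initiator tRNA that eIF5B acts with, had 25.5 and 25.02 CPM in *hot3-2* and 30.4 and 28.7 in *hot3-3*. All tRNA genes together had 31147 and 31904 CPM in *hot3-2* and 36692 and 37102 in *hot3-3*, a ratio of 1.17.

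**Figure D3:**
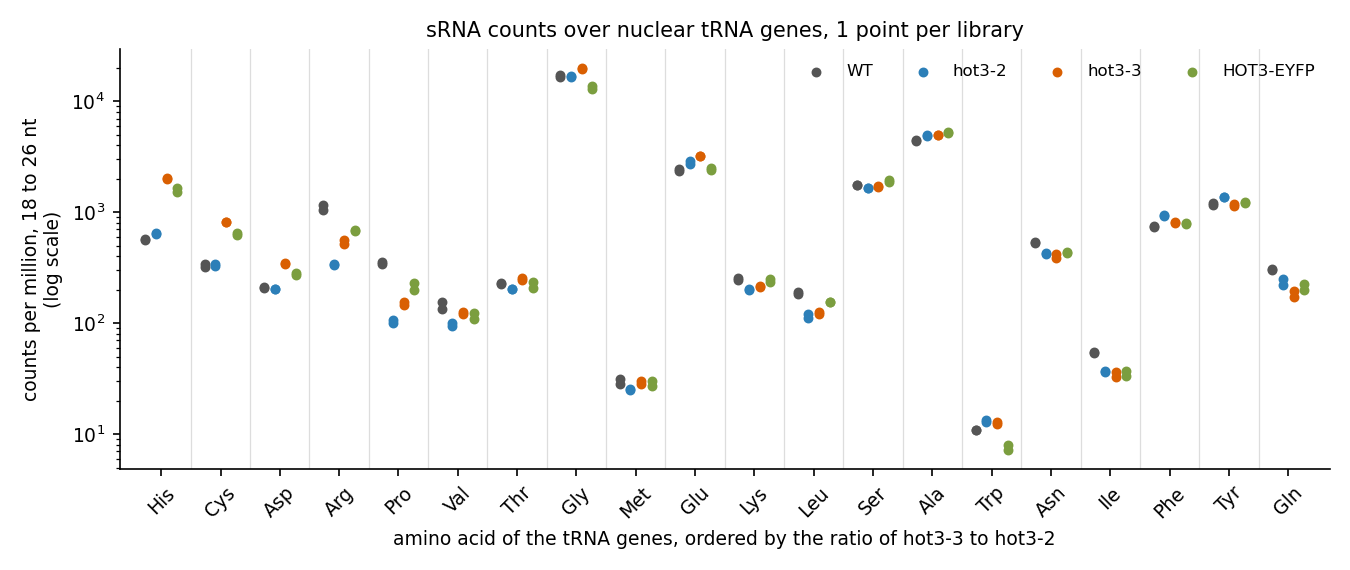
CPM over 18 nt to 26 nt (log scale) summed over the nuclear tRNA genes of each of 20 amino acids, with 1 point per library and the amino acids ordered by the ratio of *hot3-3* to *hot3-2*. For His and Cys at the left the *hot3-3* points lie far above those of *hot3-2* and WT, and the *HOT3-EYFP* points lie near them.

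The sums of tRNA-Cys and tRNA-His were called at some lengths only, and a change with length was not tested. Log2 fold changes ran from 0.10 (18 nt) to 1.81 (24 nt) for tRNA-Cys and from 0.67 (20 nt) to 1.65 (24 nt) for tRNA-His. At 19, 21 and 22 nt tRNA-His was above 2-fold (1.18, 1.26 and 1.23) and missed only the limit on the adjusted p (0.0126, 0.0484 and 0.0109 by edgeR). In the fit at 24 nt, tRNA-Cys genes had 1331 and 1277 counts in *hot3-2* and 4201 and 4303 in *hot3-3* (log2 fold change 1.81, SE 0.059, edgeR adjusted p = 7.69e-07). Every *hot3-3* count was thus over 3 times every *hot3-2* count. The tRNA-Cys sum was also called at 23 nt, with 115 and 126 against 264 and 228 counts (1.14, SE 0.17, adjusted p = 0.00829 by edgeR). tRNA-His genes were called at 23, 24, 25 and 26 nt, and most of their reads were of 26 nt, with 3123 and 3270 counts in *hot3-2* and 11234 and 11983 in *hot3-3* (1.60, SE 0.043, edgeR adjusted p = 0.00161). At 24 nt they had 255 and 234 against 723 and 706 counts (1.65, SE 0.12, edgeR adjusted p = 1.08e-04). The only further call of an amino acid was tRNA-Gly at 19 nt, with 5874 and 6020 against 11918 and 12256 counts (1.01, SE 0.023, edgeR adjusted p = 8.22e-05). At 24 nt the tRNA-Gly sum, with 4963 and 5348 against 8174 and 8466 counts, stayed below 2-fold (0.79, SE 0.031, adjusted p = 2.67e-06 by edgeR). Below 2-fold, tRNA-Glu had 2143 and 2398 against 2853 and 2867 counts at 24 nt (0.44, SE 0.053, edgeR adjusted p = 0.00411), tRNA-Asp 111 and 112 against 179 and 203 (0.88, SE 0.16, adjusted p = 0.049 by edgeR) and tRNA-Lys 237 and 222 against 342 and 366 (0.73, SE 0.13, adjusted p = 0.0482 by edgeR). In all, 6 of 20 amino acids had an adjusted p under 0.05. Among the others were tRNA-Ser with 2442 and 2606 against 2426 and 2671 counts and tRNA-Tyr with 336 and 336 against 332 and 343.

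Summed over genes of identical sequence, 10 of 88 tRNA sequences tested at 24 nt were called, all 10 higher in *hot3-3*, where 0.159% of windows were called. They were 5 sequences of tRNA-Cys, 3 of tRNA-His and 2 of tRNA-Glu. Of 8 tRNA-Cys sequences tested, 5 were thus called, and of 4 tRNA-His sequences 3. tRNA-Cys AT1G63510 had 735 and 705 counts in *hot3-2* and 2153 and 2189 in *hot3-3* at 24 nt (1.69, SE 0.073, adjusted p = 4.49e-06 by edgeR). tRNA-Cys AT3G52345, which overlaps *SPP2*, had 180 and 175 against 717 and 678 (2.08, SE 0.12, edgeR adjusted p = 2.74e-05). The log2 fold changes of the other 3 tRNA-Cys sequences lay between 1.90 and 2.21. tRNA-His AT5G64735 had 39 and 35 against 135 and 112 counts (1.84, SE 0.22, edgeR adjusted p = 0.00398), and the 6 tRNA-His genes of the sequence of AT1G02600 had a log2 fold change of 1.68 (SE 0.13, edgeR adjusted p = 1.80e-04). Among tRNA-Glu genes, the sequence of AT1G75970 had 395 and 450 against 907 and 891 counts (1.19, SE 0.095, edgeR adjusted p = 2.31e-04), and that of AT3G50665 had 150 and 136 against 273 and 324 (1.16, SE 0.15, adjusted p = 0.008 by edgeR). In each of these 6 sequences the lowest *hot3-3* count was above the highest *hot3-2* count. A call on these same libraries nearly implies this, so that it adds no support. With total counts as library size, 8 of the 10 passed, without AT3G50665 (log2 fold change 0.97) and the tRNA-His sequence of AT2G28770 (1.46). Without *hot3-2* replicate 1 or 2, 17 sequences were called.

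Fewer tRNA sequences were called at 22 nt and 21 nt than at 24 nt. At 22 nt 2 of 76 tested sequences were called, tRNA-His AT1G02600 with 31 and 42 against 93 and 88 counts and tRNA-Glu AT1G75970 with 87 and 87 against 175 and 206. At 21 nt none of 86 was called by edgeR, while tRNA-Cys AT1G63510 had 91 and 88 counts in *hot3-2* and 193 and 236 in *hot3-3* (log2 fold change 1.33, SE 0.18, adjusted p = 0.0115). The window of this gene alone was called at 21 nt (1.33, adjusted p = 0.00931 by edgeR) on the same counts. It was not called with total counts as library size (adjusted p = 0.0182 by edgeR).

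Several single tRNA genes were called in windows that were at 0 in both libraries of an allele, and the sums over identical copies were not called. This held for 5 genes with identical copies, of which 3 are described here. The other 2 are tRNA-Tyr genes called at 23 nt, AT4G22265 (0 and 0 against 77 and 19 counts, adjusted p of the sum = 0.736 by edgeR) and AT5G07315 (25 and 40 against 0 and 0, adjusted p of the sum = 0.851 by edgeR). tRNA-Ser AT5G52355 had 0 and 0 counts of 24 nt in *hot3-2* and 143 and 174 in *hot3-3*, at least 113.5-fold higher if 3 counts over the *hot3-2* libraries are taken as its upper limit. The 3 genes of its sequence together had 0 and 131 against 143 and 238 counts (log2 fold change 1.66, SE 0.89, edgeR adjusted p = 0.778), so that a difference of the sum was neither shown nor bounded closely. Reads of the same sequence were thus present in *hot3-2* replicate 2 but lay in other copies. tRNA-Glu AT5G45715 showed the opposite, with 98 and 201 counts in *hot3-2* and 0 and 0 in *hot3-3*, at least 92.8-fold lower by the same limit. The 6 genes of its sequence had 303 and 523 against 435 and 331 counts at 24 nt (log2 fold change 0.0053, SE 0.22, adjusted p = 0.998 by edgeR). At 21 nt tRNA-Phe AT1G03640 (chr1:909811-909883) had 0 and 0 counts in the libraries of *hot3-2*, WT and *HOT3-EYFP*, and 37 and 86 in *hot3-3*. Its 15 identical genes had 896 and 853 against 793 and 632 counts (edgeR adjusted p = 0.575). The calls of these windows thus hold for a copy and were not made for the sequence. tRNA-Ala AT2G30850 has a sequence found in 1 gene, and its window had 0 and 0 counts of 23 nt in *hot3-2*, against 34 and 15 in *hot3-3*. It was called (adjusted p = 0.00792 by edgeR, at least 17.6-fold), while in the test of sums the same counts were just above the limit (edgeR adjusted p = 0.012). For the rDNA the methods of the study name ShortStack for reads with several matches, and whether the window counts were made so is not given in the sources used here.

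Repeated sequence was more common in the called nuclear windows than in all those tested, but not among windows over a tRNA gene. In the median called nuclear window 36.5% of the 24-nt stretches occurred more than once in the genome, beside 17.0% in the median of the 22798 nuclear windows tested. Of the 42 called windows 7 (16.7%) held no repeated 24-nt stretch, beside 28.8% of those tested. Of the 22 called windows with no tRNA gene 31.8% held none. The median was 37.0% in called windows over a tRNA gene, beside 43.5% in the 264 such windows tested.

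The deepest nuclear window that was called lay over AT1G57900, the pseudogene shown above, in a window (chr1:27688100-27688199) that the annotations of *RABA6a* and AT1G73650 also overlap. At 24 nt it had 4127 and 4035 counts in *hot3-2* and 10051 and 10265 in *hot3-3* (1.42, SE 0.041, edgeR adjusted p = 2.99e-07). In WT it had 2398 and 2538 counts and in *HOT3-EYFP* 7111 and 6279. Both *hot3-3* libraries were the highest of the 8, and *HOT3-EYFP* lay between the alleles. It was called at 22 nt as well, with 1343 and 1448 against 2915 and 3220 counts (1.28, SE 0.066, adjusted p = 1.80e-06 by edgeR), and at 25 nt. The counts carry no strand, and all 3 genes that overlap the window were called with it. In this window 19% of the 24-nt stretches occurred more than once in the genome, and it shares a run of 27 nt with tRNA-Glu AT1G09110. Which copy its reads came from was not tested.

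Among nuclear windows outside rDNA with no tRNA gene, the protein-coding gene AT5G50290 was called at the most lengths, 5 in all (18, 19, 21, 22 and 23 nt). Its window at chr5:20464500-20464599 had 512 and 560 counts of 22 nt in *hot3-2* and 1513 and 1706 in *hot3-3*, beside 543 and 736 in WT and 1346 and 1389 in *HOT3-EYFP* (1.73, SE 0.085, edgeR adjusted p = 1.62e-06). WT was near *hot3-2* and *HOT3-EYFP* near *hot3-3*, as for tRNA-Cys and tRNA-His, and no 24-nt stretch of this window occurred elsewhere in the genome. Without *hot3-2* replicate 1 or 2, neither this window nor any other nuclear window was called at 22 nt. A window between genes at chr5:4162100-4162199, with *Pnsl5* and *G6PD2* as the nearest genes, was called at 21, 22 and 23 nt. Its call at 21 nt was lost in 5 of 13 other settings, among them those without *hot3-2* replicate 2 (log2 fold change 0.95) and without *hot3-3* replicate 2 (0.95), with total counts (0.87) and with all 8 libraries (adjusted p = 0.0346 by edgeR). At 22 nt it had 64 and 68 counts in *hot3-2* and 176 and 145 in *hot3-3*, beside 44 and 59 in WT and 64 and 48 in *HOT3-EYFP* (1.43, SE 0.19, adjusted p = 0.00166 by edgeR). Here only the 2 *hot3-3* libraries stood above the other 6, but these counts are a small part of the window. Over 18 nt to 26 nt it had 40841 and 45687 counts in *hot3-2* and 41244 and 49293 in *hot3-3*, where the alleles overlapped. Both alleles were far above WT (6784 and 8034) and *HOT3-EYFP* (10212 and 8188) in that sum. A window in a repeat of chromosome 3 (chr3:13593600-13593699), in which 66% of 24-nt stretches occurred more than once, was called at 22, 23 and 24 nt, with 26 and 26 against 150 and 130 counts at 24 nt (2.53, SE 0.22, edgeR adjusted p = 4.68e-04).

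The windows with the largest differences at 24 nt outside tRNA genes were close to 0 in an allele. Pseudogene AT3G22955 had 0 and 0 counts in *hot3-2* and 162 and 174 in *hot3-3*, at least 120.4-fold higher by the limit of 3 counts over the *hot3-2* libraries (edgeR adjusted p = 4.27e-05). In WT its window had 319 and 323 counts and in *HOT3-EYFP* 2 and 0. It was called at 21, 22, 23 and 24 nt, and none of its 24-nt stretches is repeated. At 22 nt it was not called without *hot3-2* replicate 1 or 2 (adjusted p = 0.235 or 0.481 by edgeR). A window between genes at chr2:13702500-13702599, with the lncRNA gene AT2G08505 and the zinc transporter gene *ZIP3* as the nearest genes, had 0 and 0 counts in *hot3-2*, 42 and 36 in *hot3-3*, 248 and 245 in WT and 1 and 0 in *HOT3-EYFP* (adjusted p = 0.00341 by edgeR, at least 27.9-fold). In both windows the reads of WT were nearly absent from *hot3-2* and from *HOT3-EYFP* and were present at a lower level in *hot3-3*. A further window of this kind at 24 nt, at chr3:14220100-14220199 in repeated sequence, had 0 and 0 counts in *hot3-2* and 91 and 39 in *hot3-3* (edgeR adjusted p = 0.00652), but 0 and 49 in the WT libraries, which thus differed among themselves.

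Lower in *hot3-3* at 24 nt was a window in the protein-coding gene AT3G57480 (chr3:21277300-21277399), with 88 and 76 counts in *hot3-2* and 1 and 0 in *hot3-3* (log2 fold change -6.95, SE 0.58, adjusted p = 3.86e-04 by edgeR). WT had 203 and 217 counts there and *HOT3-EYFP* 12 and 8, and no 24-nt stretch of the window is repeated. A window between genes at chr5:11188300-11188399 had 78 and 73 counts in *hot3-2* and 0 and 0 in *hot3-3*, at least 46.8-fold lower (adjusted p = 5.63e-04 by edgeR), and 97% of its 24-nt stretches are repeated. At chr3:16854200-16854299, with AT3G45850 as the nearest gene, the counts were 40 and 40 in *hot3-2* and 0 and 0 in *hot3-3*, *HOT3-EYFP* included, with 14 and 6 in WT (edgeR adjusted p = 0.00388, at least 24.8-fold). These 3 windows were named from called windows in which the libraries of the 2 alleles did not overlap, so that their separation is no further result. Another, at chr1:21710300-21710399, had 63 and 71 counts in *hot3-2* and 0 and 1 in *hot3-3* (edgeR adjusted p = 7.36e-04).

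**Figure D4:**
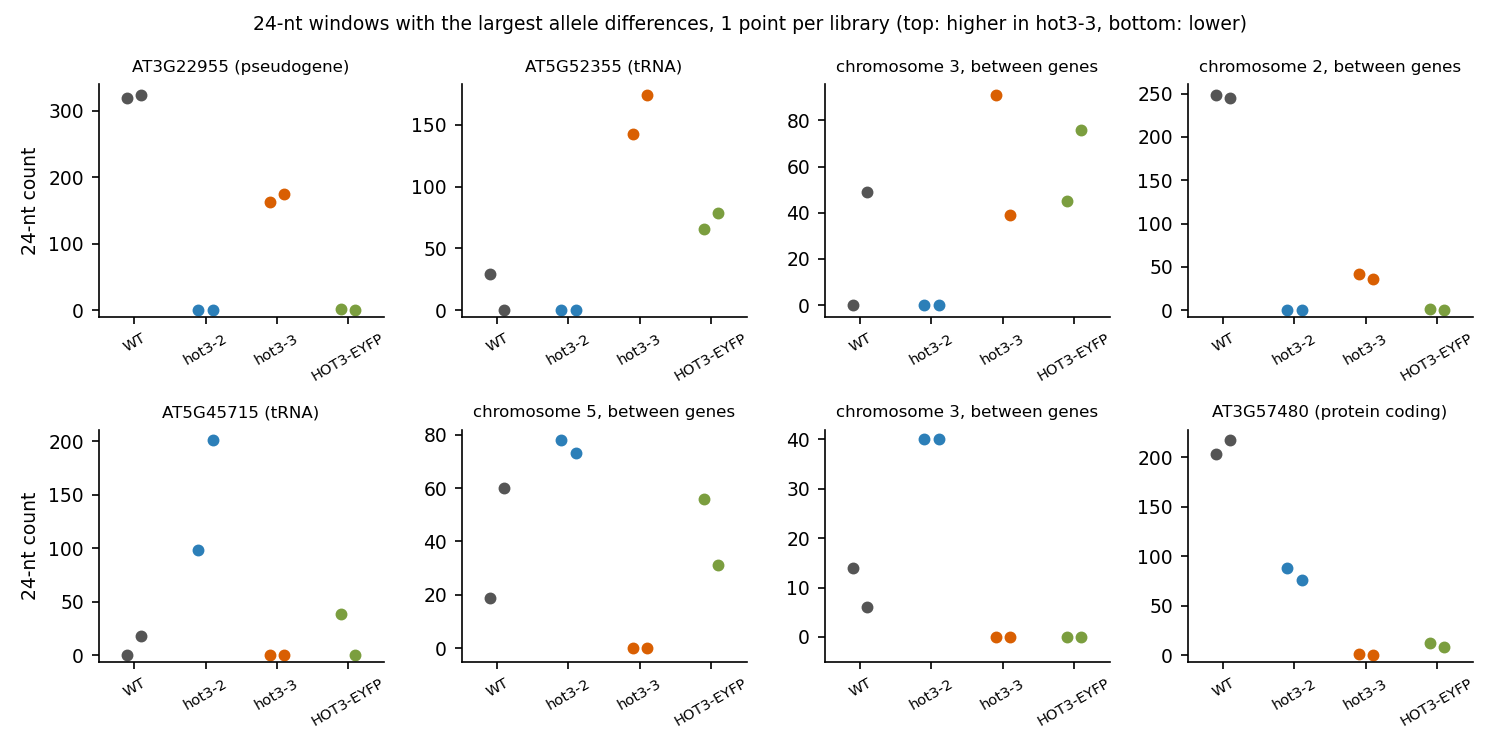
Counts of 24 nt in the 8 libraries (1 point each, linear axes that differ between panels) in the 4 nuclear windows with the largest rise (top row) and the 4 with the largest fall (bottom row) in *hot3-3* against *hot3-2*. In the panels of AT3G22955 and of the window on chromosome 2, WT is highest and both *hot3-2* and *HOT3-EYFP* lie at 0 to 2 counts.

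Summed over annotated genes, 3 of 2802 loci were called at 21 nt (0.107%), 12 of 3752 at 22 nt (0.32%) and 23 of 5877 at 24 nt (0.391%). At 21 nt 1 was higher and 2 were lower in *hot3-3*, at 22 nt 10 were higher and 2 lower, and at 24 nt 20 were higher and 3 lower. The locus higher at 21 nt was AT3G22955, and the 2 lower were *MIR3932b* (AT4G06130) and AT4G13575, a gene that covers it and takes the same reads. Of 12 loci called at 22 nt 5 are tRNA genes, and of 23 at 24 nt 14 are. Of the 5 at 22 nt, only AT1G75970 was also called as a sum over identical genes. That sum was at 0.52 for AT4G18815 (edgeR adjusted p = 0.00304), at 1.46 for AT5G52355 (0.617) and at -0.27 for AT5G45715 (0.838). tRNA-Glu AT5G27715, with 26 and 20 against 81 and 69 counts in its window, has the sequence of AT5G45715 and thus the same sum. Protein-coding loci had 4 calls higher and 1 lower of 1315 at 22 nt and 4 higher and 2 lower of 2044 at 24 nt. Without *hot3-2* replicate 1 or 2, 33 or 22 loci were called at 21 nt, 5 or 0 at 22 nt and 51 or 54 at 24 nt.

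Of the miRNA genes, which guide AGO proteins to matching mRNAs, 182 of 326 had enough 21-nt counts to be tested, and 1 was called. Their median log2 fold change was -0.071, beside -0.017 over all loci. *MIR3932b* (chr4:7890570-7890719) had 1195 and 1341 counts in *hot3-2* and 555 and 562 in *hot3-3*, beside 780 and 977 in WT and 284 and 241 in *HOT3-EYFP* (-1.11, SE 0.089, edgeR adjusted p = 0.00297). *hot3-2* was thus the highest genotype and *HOT3-EYFP* the lowest. Its 2 windows, chr4:7890500-7890599 and chr4:7890600-7890699, of which the first holds the leftmost base of miR3932b-3p (chr4:7890590-7890610, minus strand) and the second that of miR3932b-5p (chr4:7890695-7890715), were called in the same direction (-1.05 and -1.22). Under the 2-fold limit, *MIR162b*, whose miRNA targets *DCL1*, was lower in *hot3-3*, with 11395 and 12076 against 8541 and 7954 counts (-0.44, adjusted p = 0.00709 by edgeR). *MIR396b*, of the family that targets *GRF* genes, had 5591 and 5332 against 3959 and 3852 counts (-0.41, edgeR adjusted p = 0.0237). *MIR173*, whose miRNA starts the siRNAs of *TAS1* and *TAS2*, had 12637 and 13052 against 10452 and 10579 counts (-0.22, edgeR adjusted p = 0.0215).

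Other *MIR* genes named from the list were not called. *MIR845a* had 24712 and 29299 counts in *hot3-2* and 21536 and 23254 in *hot3-3* at 21 nt (-0.20, adjusted p = 0.364 by edgeR), both alleles far above the 253 and 228 counts of WT. *MIR158a* had 5422 and 5578 counts in *hot3-2* and 4879 and 5056 in *hot3-3* at 21 nt (-0.075, SE 0.041). The 2 *MIR390* genes, which start the siRNAs of *TAS3*, had log2 fold changes of 0.13 (*MIR390a*) and -0.27 (*MIR390b*), and *MIR408*, of the family that targets copper proteins, had 0.086. *MIR398b* had 19743 and 16237 against 20671 and 23698 counts, and *MIR398c* 16239 and 31819 against 22032 and 22155, so that the libraries of an allele spread as widely as the alleles. *MIR157b* had 0 and 570 against 404 and 0 counts and *MIR157a* 1044 and 546 against 390 and 780. Each gene thus went apart within an allele, but in opposite directions. In both alleles the library with more *MIR157b* counts had fewer *MIR157a* counts. These 2 genes were not summed, so that a difference of their total between the alleles was not tested. At 22 nt none of 106 *MIR* genes was called and at 24 nt none of 77 by edgeR, with 17 and 10 at an unadjusted p under 0.05.

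The *TAS* genes, from which trans-acting siRNAs are cut, differed by little. None of 7 was called at 21 nt by edgeR, with 5 at an unadjusted p under 0.05. *TAS1A* had 39832 and 40932 counts in *hot3-2* and 32166 and 32524 in *hot3-3* (-0.25, SE 0.020, adjusted p = 0.00297 by edgeR). *TAS1C* had 25791 and 26889 against 20706 and 21080 (-0.26, SE 0.022, edgeR adjusted p = 0.00316). Both were lower in both *hot3-3* libraries and far below the 2-fold limit. *TAS1B* (-0.17), *TAS2* (-0.14), *TAS3* (-0.10) and AT5G49615 (*TAS3b*, -0.23) were below 0 with adjusted p between 0.0932 and 0.873. *TAS4* (AT3G25795) was the only member above 0, with 1702 and 1831 counts in *hot3-2* and 2291 and 2387 in *hot3-3* (0.48, SE 0.061, adjusted p = 0.0198 by edgeR). Levels of *TAS4* in both alleles were far above WT (176 and 224) and *HOT3-EYFP* (324 and 226). Over the 7 members the median was -0.17, beside -0.017 over all loci tested at 21 nt.

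Genes of the sRNA machinery gave few sRNAs. Of 14 listed *DCL*, *AGO*, *RDR* and related genes, 3 were tested at 21 nt, 2 at 22 nt and 1 at 24 nt, and none was called or had an unadjusted p under 0.05 in edgeR. *AGO1*, which binds most miRNAs, had 64 and 76 against 89 and 57 counts at 21 nt, and *AGO2* 212 and 180 against 175 and 161. Neither genes with a transposon term in their annotation (0 of 49 tested at 24 nt, 1 at an unadjusted p under 0.05) nor snoRNA genes (0 of 88, 11 at an unadjusted p under 0.05) had a call by edgeR. These 49 need not hold all transposons. Loci annotated as pseudogenes, summarized apart, had 3 calls higher and 0 lower of 3054 at 24 nt.

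The 45S rDNA encodes 18S, 5.8S and 25S rRNA with spacers that are removed during maturation. It held a larger share of the sRNAs in *hot3-3* than in *hot3-2*, and in both a smaller share than in WT (44.1% and 44.4%). With total counts as library size, 25S was higher at 21, 22 and 24 nt, below the 2-fold limit. At 21 nt 25S had 19124 and 19154 CPM in *hot3-2* and 23694 and 23777 in *hot3-3* (0.31, SE 0.0098, edgeR adjusted p = 3.52e-05). At 22 nt it had 22511 and 23218 against 32766 and 33630 CPM (0.54, SE 0.015, adjusted p = 3.04e-09 by edgeR), and at 24 nt 15522 and 15779 against 20733 and 20609 (0.40, SE 0.0082, edgeR adjusted p = 1.80e-08). In WT 25S had 26144 and 26324 CPM at 21 nt, 34773 and 35325 at 22 nt and 22491 and 22613 at 24 nt. Both alleles were thus below WT at these lengths, *hot3-2* further than *hot3-3*. The libraries of the alleles were far apart relative to their spread, but no region reached 2-fold at 21 nt or 22 nt, where 1.72% and 1.9% of windows passed the limits used for regions (2-fold and an unadjusted p under 0.01). With total counts as library size the median of all windows itself lay at -0.19, -0.23 and -0.19 for 21, 22 and 24 nt. The values of regions are therefore to be read against these medians.

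The difference was uneven along the unit. The part of 18S before its last 600 bp had 5798 and 5893 CPM of 21 nt in *hot3-2* and 6445 and 6497 in *hot3-3* (0.15, SE 0.016, edgeR adjusted p = 0.00515). The 3′ region of 18S had 4599 and 4436 CPM against 4285 and 4270 at 21 nt (-0.079, SE 0.022, adjusted p = 0.179 by edgeR) and 2188 and 2252 against 2442 and 2415 at 22 nt (0.13, SE 0.024, edgeR adjusted p = 0.0202). Its direction at 21 nt turned to above 0 on the TMM scale (0.082). In WT this region had 3058.1 and 3075.3 CPM at 21 nt, below both alleles, and 2889.1 and 2904.5 at 22 nt, above both. The boundary of 18S and ITS1 had 323 and 315 against 329 and 326 CPM at 21 nt (0.038, SE 0.047, adjusted p = 0.807 by edgeR). WT had 136 and 134 CPM at this boundary. The 5′ ETS, the leader spacer, was lower, with 180 and 167 against 136 and 137 CPM at 22 nt (-0.35, SE 0.069, edgeR adjusted p = 0.0342), and was near 0 on the TMM scale at 21 nt (-0.063) and 22 nt (-0.11). WT had 80 and 84 CPM of 22 nt in the 5′ ETS, below both alleles. ITS2, the spacer between 5.8S and 25S, passed both limits at 23 nt, with 62.6 and 76.8 against 157.6 and 170.1 CPM (1.23, SE 0.11, adjusted p = 7.35e-05 by edgeR), and at 25 nt, with 46.2 and 50.3 against 97.7 and 103 CPM (1.06, SE 0.092, edgeR adjusted p = 0.0126). At these lengths 1.84% and 2.66% of windows passed the same limits. On the TMM scale ITS2 was at 1.43 for 23 nt and at 0.93, below 2-fold, for 25 nt, and at 24 nt, where it missed 2-fold with total counts (0.90), it was at 1.09. The sums at 23 nt and 25 nt rest on 1 window at chr2:5900-5999, which begins within 5.8S (its last base is 5945). At 24 nt it held 146 and 112 of the 163 and 126 ITS2 counts on chromosome 2 in *hot3-2*, and 366 and 459 of 379 and 471 in *hot3-3*. ITS2 on chromosome 3 was at 0.011 for 24 nt with total counts. Without this window, a sum added after the values had been seen, ITS2 had 142 and 357 against 309 and 314 counts of 23 nt, where the alleles overlapped, and 79 and 119 against 113 and 125 of 25 nt, where they overlapped too.

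The copies on chromosomes 2 and 3 did not move together in every region, again with total counts as library size. ITS1 on chromosome 2 had 46284 and 51390 counts of 21 nt in *hot3-2* and 40910 and 39890 in *hot3-3* (-0.36, SE 0.031, edgeR adjusted p = 0.00166). ITS1 on chromosome 3 had 10961 and 11409 against 14839 and 16881 (0.41, SE 0.047, adjusted p = 0.00551 by edgeR). The same opposite signs were seen at 22 nt (-0.39 and 0.42) and at 24 nt (-0.25 and 0.54). On the TMM scale ITS1 was at -0.20 and 0.58 for 21 nt, -0.16 and 0.65 for 22 nt, and -0.062 and 0.73 for 24 nt on chromosomes 2 and 3. 5.8S on chromosome 3 had 516 and 525 against 1081 and 1187 counts at 24 nt (1.03, SE 0.089, edgeR adjusted p = 4.31e-04), whereas on chromosome 2 it had 3234 and 3514 against 3680 and 3581 (0.018, SE 0.050, adjusted p = 0.956 by edgeR). On the TMM scale these were 1.23 and 0.21. Each region was a set of whole 100-bp windows, which start at different bases of the unit in the 2 copies. The window at chr2:5900-5999, which holds the end of 5.8S, was counted as ITS2, whereas chr3:14199800-14199899 was counted as 5.8S. At 24 nt these windows were at 1.77 and 1.23 on the TMM scale. Reads divided differently between the copies can therefore not be told apart from unlike stretches in the sums.

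Of the 17 called rDNA windows, the largest rise at 24 nt was in the 18S window shown above (chr3:14198300-14198399, which starts 623 bp after the first base of 18S). It had 1633 and 1677 counts in *hot3-2* and 5860 and 6195 in *hot3-3* (1.97, SE 0.046, edgeR adjusted p = 6.63e-08). WT had 5213 and 5848 counts there and *HOT3-EYFP* 12883 and 12278, so that *hot3-2* was the lowest genotype. The matching window of the copy on chromosome 2 (chr2:4300-4399) had 1560 and 1652 against 5784 and 5887 counts (1.97, SE 0.043, edgeR adjusted p = 6.63e-08). Both windows were called at 22, 23, 24 and 25 nt. The called 25S window with the most counts (chr3:14202100-14202199) had 38641 and 43299 counts of 22 nt in *hot3-2* and 83551 and 90568 in *hot3-3*, beside 77685 and 86452 in WT and 172069 and 152040 in *HOT3-EYFP* (1.24, SE 0.036, adjusted p = 1.29e-08 by edgeR). At 23 nt the largest rise was at chr2:5900-5999, over the end of 5.8S (AT2G01020) and the start of ITS2, with 297 and 214 against 885 and 1010 counts (1.99, SE 0.17, edgeR adjusted p = 2.69e-05). Of 61 windows of 25S tested at 22 nt, 60 had a log2 fold change above 0, with a median of 0.61, beside 0.0039 over all windows at that length.

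**Figure D5:**
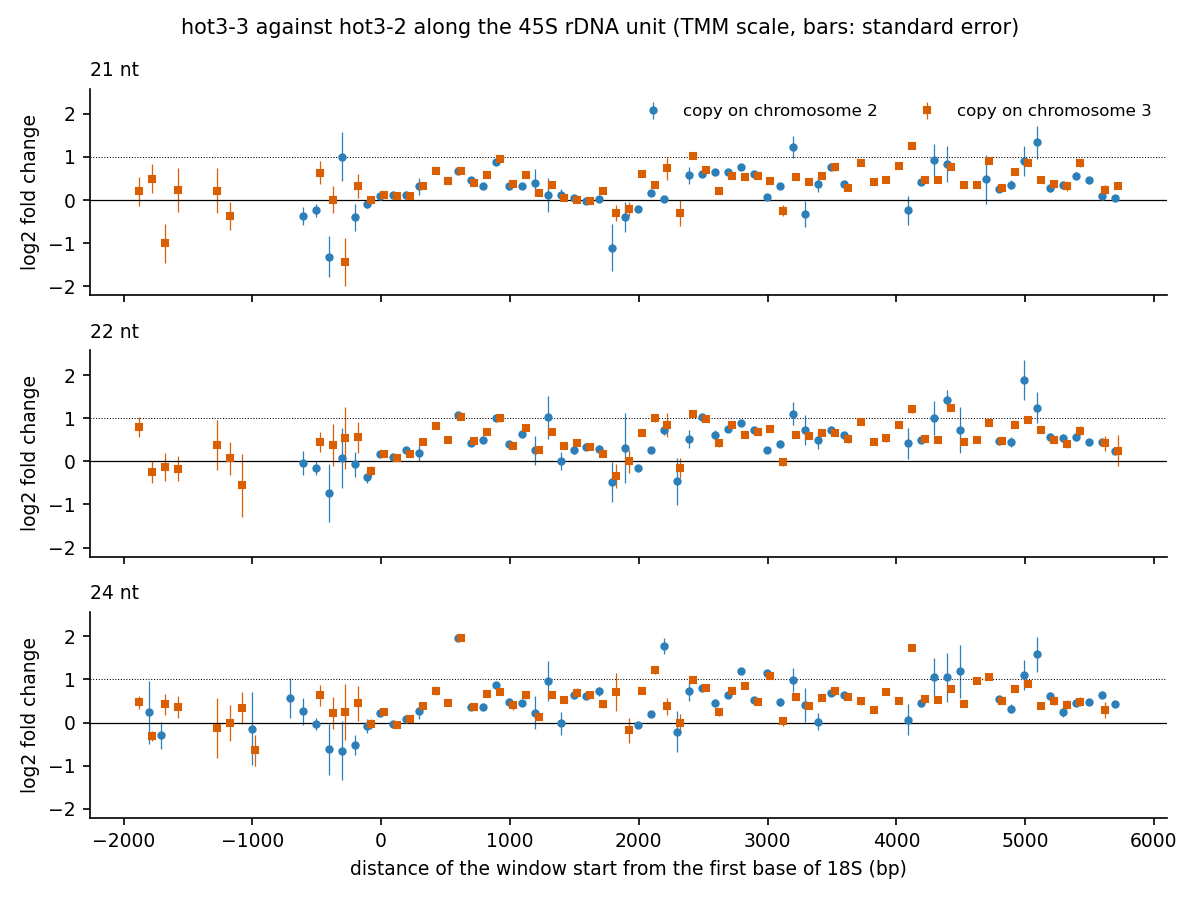
Log2 fold change of *hot3-3* against *hot3-2* with its standard error, on the TMM scale, in windows along the 45S unit (x axis, distance in bp from the first base of 18S) at 21 nt, 22 nt and 24 nt, for the copies on chromosomes 2 and 3. Most points of 18S and 25S lie above 0 and below the dotted line at 2-fold, and the 18S windows that start 594 bp and 623 bp after the first base reach 1.97 at 24 nt.

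In the organelles few windows were called. No chloroplast window was called by edgeR at any length, with 336 of 3253 tests at an unadjusted p under 0.05 and 1 call by DESeq2's Wald test. The median chloroplast log2 fold change was 0.15 at 21 nt, 0.21 at 22 nt and 0.18 at 24 nt. In the mitochondrion the medians were larger, at 0.52, 0.54 and 0.25 for these lengths. There 143 of 729 tests had an unadjusted p under 0.05 in edgeR, and at 22 nt 32 of 82, so that few calls do not mean few differences. Among mitochondrial windows the largest rise had 19 and 26 counts of 23 nt in *hot3-2* and 91 and 95 in *hot3-3*, beside 61 and 64 in WT and 137 and 150 in *HOT3-EYFP* (2.15, SE 0.25, adjusted p = 4.89e-04 by edgeR). It was called at 22 nt as well. Another window had 557 and 525 against 1224 and 1296 counts of 20 nt (1.18, SE 0.080, edgeR adjusted p = 0.00397), and was not called without *hot3-3* replicate 1 (adjusted p = 0.213 by edgeR). The remaining window had 46 and 37 against 108 and 99 counts of 23 nt (1.42, SE 0.22, edgeR adjusted p = 0.00709). No position is given for them, because the windows of the mitochondrion are 3670 and the reference used here would give 3679. Without *hot3-3* replicate 2 the chloroplast had 20 calls, and without 1 of the other libraries 2 or 3. The mitochondrion had 5 and 18 calls without *hot3-2* replicate 1 and 2, and 11 and 14 without *hot3-3* replicate 1 and 2.

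WT and *HOT3-EYFP*, which took no part in the calls, were set beside the alleles to see in which genotype a called window departed. Of 35 calls of nuclear windows higher in *hot3-3* at 21, 22 and 24 nt, the mean log2 CPM of WT was nearer *hot3-2* in 25, and that of *HOT3-EYFP* was nearer *hot3-3* in 24. Both held in 18 of the 35. Of 9 calls lower in *hot3-3*, WT was nearer *hot3-2* in 5 and *HOT3-EYFP* nearer *hot3-3* in 7. In rDNA WT was nearer *hot3-3* in 19 of 20 calls and *HOT3-EYFP* in all 20. Of 19 higher calls over a tRNA gene WT was nearer *hot3-2* in 16, and of 16 others in 9. These counts describe positions between means and carry no test.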

How the data were processed

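Total RNA from 18-day-old seedlings was size-selected and made into sRNA libraries (2 per genotype, 8 in all). The authors trimmed adapters, analysed the reads with pRNASeqTools and deposited unnormalized counts per 100-bp window and read length, with no strand. The processing notes list Bowtie, cutadapt 4.2, featureCounts 2.0.3 and DESeq2 1.34.0. The methods name ShortStack, with several matches allowed, for reads aligned to 45S rDNA. Whether the window counts were made so is not given in the sources used here, and values of repeated sequences depend on it.

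Groups followed the genotype labels. Windows with 10 or more counts in 2 or more of the 4 libraries were tested per length with edgeR 4.0.16 (TMM, quasi-likelihood) in R 4.3.3, with calls at 2-fold and a Benjamini-Hochberg adjusted p under 0.01. Sums over annotated genes were tested likewise. rDNA regions were summed over both copies, with total counts as library size, and called at 2-fold and an unadjusted p under 0.01. The fits were tested on simulated data. Named windows were taken from called windows in which the libraries of the alleles did not overlap. They were the 4 largest rises and falls at 21, 22 and 24 nt and the 2 largest in rDNA and each organelle. Called loci of the highest level, *TAS*, *MIR*, machinery and tRNA genes were named besides. Members and lists were chosen with earlier results of these data known, and other windows named were chosen after their values were seen. Alternatives were other library scalings, filters and limits, DESeq2 1.42.0, all 8 libraries, a replicate block and leaving out 1 library. Depth was 6793502 to 8210328 counts per library, and windows near 10 counts can only show large differences.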

Additional observations from a re-analysis of the deposited data

How the results depend on the processing

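Of the calls of nuclear windows (8, 10 and 26 for reads of 21, 22 and 24 nt), the counts moved by over 1.5 times under several settings. With no filter they were 53, 37 and 195, and at an adjusted p under 0.05 with no fold limit 46, 26 and 62. At 21 nt total counts gave 5. At 22 nt DESeq2's Wald test gave 6, and 10 counts in all 4 libraries gave 16 there and 43 at 24 nt. Leaving out 1 library gave 32 to 62, 0 to 53 and 90 to 159. In rDNA (37) total counts gave 17, an adjusted p under 0.05 gave 413 and leaving out 1 library 26 to 46. In the chloroplast (0) DESeq2's Wald test, all 8 libraries and 10 counts in all 4 gave 1 each, no filter 41, an adjusted p under 0.05 28 and leaving out 1 library 2 to 20. In the mitochondrion (4) total counts gave 2, the Wald test 7, no filter 17, 10 counts in all 4 libraries 10, an adjusted p under 0.05 8 and leaving out 1 library 5 to 18. Loci (3, 12 and 23) became 26, 29 and 46 at an adjusted p under 0.05, and 22 to 47, 0 to 24 and 17 to 54 without 1 library. Regions of rDNA past the limits at 21 and 22 nt (0) became 10 at an adjusted p under 0.05 and 0 to 0 without 1 library. tRNA sequences at 24 nt (10) became 16 at an adjusted p under 0.05 and 12 to 17 without 1 library, settings added after the data had been seen. Lower windows with WT nearer *hot3-2* went from 5 to 9 with calls from all 8 libraries. Within nuclear windows the difference in share was -1.11 percentage points at 21 nt and -0.43 at 24 nt. The cause of these changes was not tested.

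The replicate numbers are shared between the alleles only as labels, and same-numbered libraries did not deviate together (correlations of -0.015, 0.016 and 0.0036 for 21, 22 and 24 nt). The replicate block gave 11, 44 and 29 nuclear windows for these lengths, 4 in the chloroplast, 9 in the mitochondrion and 10 and 25 loci at 21 and 22 nt.

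Only rDNA regions changed sign. Under TMM over nuclear windows, DESeq2 size factors and TMM over all windows, the 3′ region of 18S at 21 nt was at 0.16, 0.10 and 0.082, the 18S and ITS1 boundary at 22 nt at 0.21, 0.16 and 0.17, ITS1 at 22 nt at 0.072, 0.026 and 0.032, and ITS2 at 21 nt at 0.19, 0.13 and 0.11. Nuclear TMM put the 5′ ETS at 21 nt at 0.011 and ITS1 at 21 nt at 0.054, where DESeq2 size factors gave 2.24e-04. The copy on chromosome 3 alone gave 0.41 and 0.42 for ITS1 at 21 and 22 nt and 0.42 for ITS2 at 21 nt. For single windows, loci, regions and tRNA sums, 704 of 776 values kept direction and side of the limits, 41 lost the call, 13 gained it and 18 reversed. Settings that gave no value for an item are in neither the 776 nor the 41. The named windows at or close to 0 in an allele had values in 10 settings, where other named windows had 13. Locus AT3G22955 at 21 nt had values in 8 settings, where most loci had 10. For these items the 41 can therefore understate how often the call was absent. With 2 libraries per allele the spread rests on few values, and windows at 0 in an allele rest on few reads in the other.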
